A study of Drosophila melanogaster with 24 samples.

Results

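The genes described here are the 52 Drosophila genes for translation initiation factors (eIF) and elongation factors (eEF), of 13922 protein-coding genes on the main chromosome arms. They were taken from the RefSeq gene table of the Release 6 assembly (dm6) as every protein-coding gene whose symbol begins with eIF or eEF, and each was marked for a peak of Isha, CP190, Su(Hw) or Mod(mdg4) within 1000 bp of its span. Chromatin immunoprecipitation and sequencing (ChIP-seq) had been done in Kc167 cells, a line from Drosophila embryos, after a mock treatment or 5 days after transfection with dsRNA against Isha (12 µg). The question was where Isha lies relative to insulator proteins, and whether these stay on chromatin when Isha is reduced. The gypsy insulator is bound by Su(Hw), a zinc finger protein, and CP190 and Mod(mdg4), probed here as its 67.2 form, are known to act with it. Each antibody and treatment had 2 replicates, and the Isha replicates used different antisera.

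Translation initiation brings the small ribosomal subunit, the initiator tRNA and the capped end of an mRNA together. The eIF4 proteins recognise the cap and unwind the leader, eIF2 delivers the initiator tRNA, eIF3 holds the complex on the small subunit, and eIF1, eIF1A, eIF5 and eIF5B select the start codon and join the large subunit. The eEF proteins then bring in aminoacyl-tRNAs and move the ribosome along the message. Most of these factors are needed in every growing cell, while several have extra gene copies, such as eIF4E3 and eIF4G2, which are known for their roles in the male germline.

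The values are peak positions from 8 deposited lists, 1 per antibody and treatment, each read as joining both replicates. The lists give no score or read count, so depth is unknown and no call can be checked within each replicate. No difference between treatments or gene groups is given a p-value. A lost call may be a weaker peak that fell below the threshold used. If a listed peak had to be found in both replicates, a lost call may also be one missed in a single replicate. The main arms held 4735 Isha, 8193 CP190, 4900 Su(Hw) and 1305 Mod(mdg4) peaks in mock cells and 932, 8880, 4711 and 1091 after knockdown. The lists hold no expression values, so neither the level of the factors nor the identity of the line was checked. The gene table gives no strand, and the ends of a gene are called its lower- and higher-coordinate end.

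In mock cells Isha lay at most translation factor genes. A mock Isha peak was within 1000 bp of 41 of the 52 (78.8%), against 49.7% of all protein-coding genes and 53.9% when all genes were weighted to the lengths of the 52. CP190 was at 38 (73.1%), against 61% of all genes and 62.3% at like length. Su(Hw) was at 9 (17.3%), against 22.6% and 20%, and Mod(mdg4) at 5 (9.62%), against 8.23% and 7.23%, so the counts for these proteins were close to the background. After knockdown 17 of the 52 genes had an Isha peak (32.7%), against 14.8% of all genes and 16.2% at like length, and 41 had CP190 (78.8%), against 63% and 64.6%. Su(Hw) was then at 8 (15.4%), against 20.9% and 18.5%, and Mod(mdg4) at 3 (5.77%), against 7.71% and 6.94%. In mock cells the Isha share was 91.3% among 92 cytosolic ribosomal protein genes and 94.5% among 73 mitochondrial ones. At their lengths 45.7% and 37.1% of all genes had it. Mock CP190 was at 93.5% and 86.3% of these genes, against 53% and 47.4% at like length. After knockdown Isha was at 23.9% and 30.1% of them, against 14.2% and 11.6%. A share above like-length genes was thus not particular to the translation factor genes. Of a further 25 genes that act in translation or its control, 24 had a mock Isha peak and 22 a mock CP190 peak. At their lengths 55.6% and 67.5% of all genes did. After knockdown 8 of the 25 had Isha (32%, against 16.2% at like length). The 25 included the poly(A)-binding protein gene pAbp, the kinase genes PEK and Gcn2 that act on eIF2, and the release factor genes eRF1 and eRF3. The gene without mock Isha was Thor, which encodes the protein that binds and restrains eIF4E. These shares were not tested against each other.

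**Figure D1:**
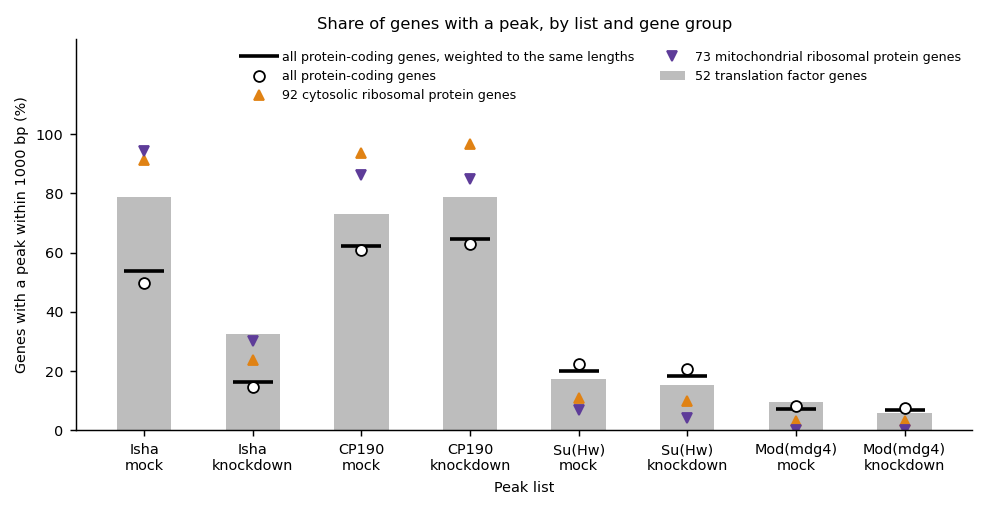
Share of genes (%, vertical axis) with a peak within 1000 bp, for each of the 8 lists (horizontal axis). Bars are the 52 translation factor genes, open circles all 13922 protein-coding genes, black dashes all genes weighted to the lengths of the 52, and triangles the ribosomal protein genes; for mock Isha the bar stands at 78.8% and the dash at 53.9%.

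The genes with and without Isha were set apart by a wide gap in distance. At 40 of the 41 genes a mock Isha peak overlapped the gene itself, and at eIF4E1 the nearest peak ended 349 bp away. The next distance in order was 11111 bp, at eIF3f2, and the longest was 154477 bp, at eIF4B. No other window between those limits would change the count for mock Isha. The other lists had values nearer to the 1000 bp limit. At eIF3d2, for example, the mock CP190 peak lay 1043 bp away, just outside it, and the mock Su(Hw) peak 806 bp away, just inside.

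**Figure D2:**
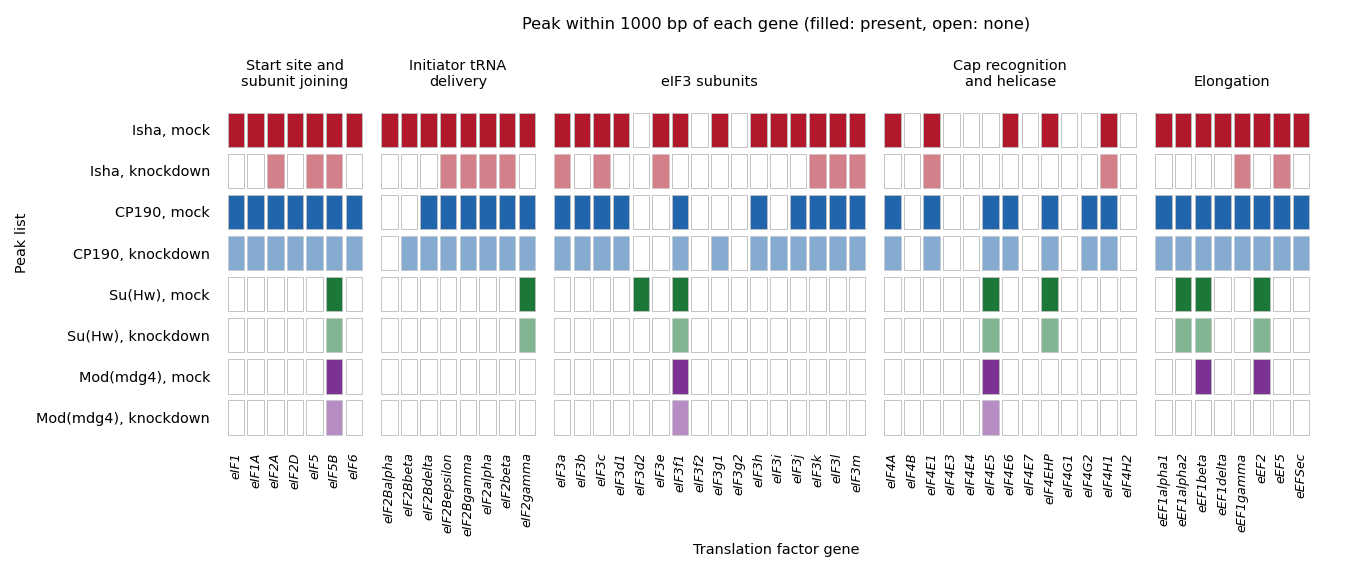
Peaks within 1000 bp of each of the 52 genes (columns, grouped by role) in each of the 8 lists (rows); a filled square is a peak and an open one none, with paler colour for knockdown. The mock Isha row is filled at 41 genes and empty at 11, of which 8 are in the cap recognition and helicase group.

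The group of start codon selection and subunit joining held 7 genes, with eIF2A, eIF2D and eIF6 placed in it. All 7 had Isha and CP190 in mock cells, against 41.8% of all genes. eIF1 (3L, 3223341 to 3224650) and eIF6 (2R, 23849246 to 23850301), the factor that keeps the large subunit from joining too early, each lay wholly inside an Isha peak. The peak over eIF1 was the widest at any of the 52 genes, with 6940 bp (3L, 3221042 to 3227981), and was also within 1000 bp of the ribosomal protein gene RpL28. At eIF1A, one of the longer genes with 8341 bp, an Isha peak held the lower-coordinate end, a second lay just beyond the other end, and 6.7% of the span was covered. eIF5, whose product triggers GTP hydrolysis by eIF2, had 3 Isha peaks, and eIF2A had 3. eIF2D, which can deliver initiator tRNA without eIF2, had 2.

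eIF5B, the GTPase gene of subunit joining, had a peak in all 8 lists, the only one of the 52 genes that did. The gene spans 32320 bp (3L, 3428658 to 3460977) and held 9 mock Isha peaks, which covered 66.1% of it. The widest of these ran from 3441186 to 3447133 and from 3426103 to 3432003. It held 4 mock CP190 peaks, 2 of Su(Hw) and 1 of Mod(mdg4). The Mod(mdg4) peak (3456375 to 3457537) lay within the Su(Hw) peak at 3456084 to 3457994, which a CP190 peak (3456149 to 3457909) nearly matched. The other Su(Hw) peak (3444846 to 3446448) also met CP190 and Isha.

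Every gene for eIF2, the carrier of the initiator tRNA, and for eIF2B, its nucleotide exchange factor, had a mock Isha peak (8 of 8). Over all genes the share was 49.7%. CP190 was at 6 of the 8, against 61% of all genes. It was missing from eIF2Balpha and eIF2Bbeta, whose nearest mock CP190 peaks were 26061 and 24108 bp away. Isha covered 97.2% of eIF2beta and 94.5% of eIF2alpha, but 33.7% of eIF2gamma, a gene known to share part of its locus with the heterochromatin gene Su(var)3-9. A single Isha peak on X (16445276 to 16450292) overlapped both eIF2alpha (X, 16445176 to 16446993) and eIF4H1 (X, 16448665 to 16454972), so these members are not independent. The second widest Isha peak, with 6119 bp, lay at eIF2Bdelta (2R, 23381873 to 23387991) and covered 58.1% of it. At eIF2gamma the Su(Hw) peak (3R, 15256003 to 15258621) held the lower-coordinate end, and the Isha peaks lay at the other.

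Of the 16 genes for eIF3 subunits, 13 had a mock Isha peak and 10 of these a CP190 peak. Over all genes 49.7% had mock Isha and 41.8% had both. The 3 without Isha were eIF3d2, eIF3f2 and eIF3g2, the later-numbered copies of subunits whose first copies eIF3d1, eIF3f1 and eIF3g1 all had one. Isha covered the whole of eIF3g1, eIF3i, eIF3j, eIF3k and eIF3m, and 97.7% of eIF3f1. CP190 covered less of the same genes: 71.6% of eIF3f1, none of eIF3g1 and eIF3i, 48.1% of eIF3j, 57.7% of eIF3k and 44.7% of eIF3m. eIF3e, eIF3g1 and eIF3i had Isha with no CP190 peak within 1000 bp.

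The cap recognition and helicase group was the least covered, with Isha at 5 of 13 genes and CP190 at 7. These counts were close to the background of 49.7% and 61% of all genes. In this group the genes with Isha were eIF4A, the helicase of the complex, eIF4E1, the main cap-binding protein, eIF4E6, eIF4H1 and eIF4EHP, a cap-binding protein that represses translation. eIF4A (2L, 5981764 to 5985909) held 3 Isha peaks, at each end and over its middle, that together covered 72.4% of it. eIF4EHP, with 45884 bp the longest of the 52 genes, held 6 Su(Hw) peaks inside the stretch from 24071502 to 24096440 on 3R and 4 Isha peaks nearer its higher-coordinate end, from 24103965 to 24110173. None of its Su(Hw) peaks overlapped an Isha peak.

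Most genes without Isha were further copies of a factor gene, 9 of the 11. Of the 33 genes with no numbered paralog, 32 had mock Isha. Of the 7 genes that come first in a paralog family 6 had it, and of the 12 other copies 3 did (eIF4E6, eIF4EHP and eEF1alpha2). The median lengths of these sets were 1938, 2843 and 1692 bp, and 54.6%, 55.9% and 50.7% of all genes at like length had Isha. In the eIF4E family eIF4E1 had Isha and CP190, while eIF4E3, eIF4E4 and eIF4E7 had no peak in any list. eIF4E5 had CP190, Su(Hw) and Mod(mdg4) together in both treatments and no Isha, with the nearest mock Isha peak 15879 bp away. Its mock Su(Hw) peak (3L, 7895379 to 7896837) was also within 1000 bp of CG32365 and pbl. eIF4H2 also had no peak in any list, and eIF4G2 had a CP190 peak alone (3R, 23818403 to 23821280 in mock cells), which held its higher-coordinate end and was also near CG33111 and CG34355.

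Among the single or first copies 2 genes had no mock Isha peak. eIF4B (3L, 27842669 to 27858271), in the centromere-proximal part of the arm, had no peak in any list, and its nearest CP190 peak was 101293 bp away. eIF4G1, the scaffold of the cap complex, lies on chromosome 4 (915297 to 930715) and had none either, with the nearest mock Isha peak at 46590 bp and CP190 at 9725 bp. On that chromosome 38.8% of 80 genes had mock Isha. In all, 8 of the 52 genes (15.4%) had no peak in any of the 8 lists, against 28.3% of all genes and 26.2% at like length.

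All 8 elongation factor genes had Isha and CP190 in mock cells, against 41.8% of all genes. eEF1alpha1 (2R, 11891135 to 11895762), which encodes the main carrier of aminoacyl-tRNA, held an Isha peak over most of its span (11891544 to 11895167) and a second at its lower-coordinate end. Isha covered 79.7% of it, 70.8% of eEF2 (2L, 21677913 to 21682164), the translocation factor gene, and 91.3% of eEF1gamma. At eEF1alpha2, the second copy, the value was 6.05%, although a peak of 5443 bp (3R, 31743014 to 31748456) began inside it and ran on past its higher-coordinate end. At eEFSec, the factor for selenocysteine, it was 73.1%. Su(Hw) lay at eEF1alpha2, eEF1beta and eEF2, and Mod(mdg4) at eEF1beta and eEF2. At eEF1beta, a gene of the exchange factor of eEF1alpha, all 4 proteins met: the mock Mod(mdg4) peak (2R, 16868931 to 16869698) lay inside the Su(Hw) peak (16868704 to 16869978) and overlapped the end of the Isha peak (16866164 to 16869119).

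**Figure D3:**
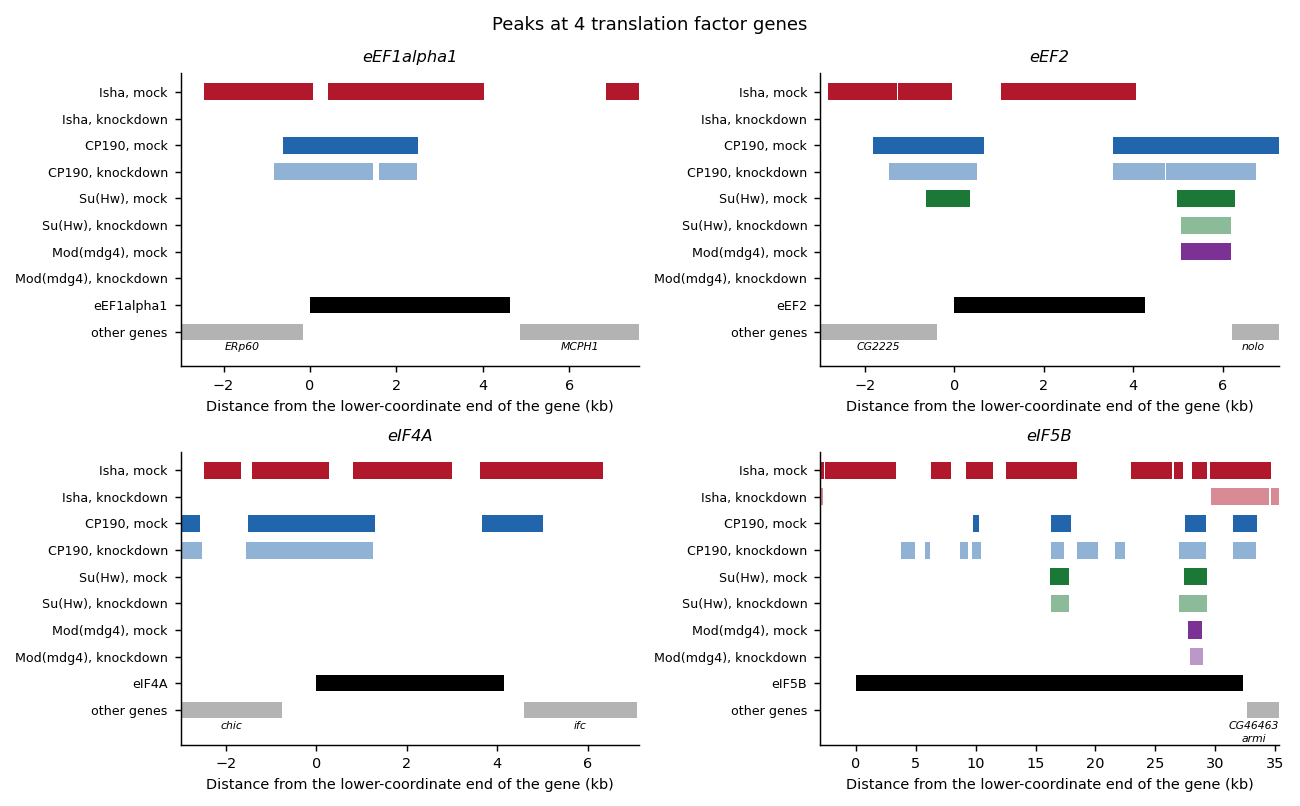
Peaks of the 8 lists (coloured bars, paler for knockdown) at eEF1alpha1, eEF2, eIF4A and eIF5B, drawn by distance from the lower-coordinate end of each gene in kb, with 3 kb on either side, the gene in black and other protein-coding genes in grey. Mock Isha bars run along the genes, and at eEF1alpha1, eEF2 and eIF4A no knockdown Isha bar is drawn.

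Isha peaks covered a large share of many of these genes. Over the 52 genes the median share of the span covered by mock Isha peaks was 57.5%, against 0% over all genes, since over 50% of all genes had no peak inside. Isha covered more than 50% of the span at 29 of the 52 genes (55.8%), against 19.6% of all genes and 23.7% at like length. For CP190 this held for 7 genes (13.5%), against 8.86% and 7.8%, and the median was 21.4% against 5.3%. After knockdown Isha covered more than 50% of 7 genes (13.5%), against 4.48% of all genes and 5.29% at like length. Mock Isha peaks at these genes were also wide, with a median of 2193 bp over 76 peaks, against 1555 bp over the 4632 Isha peaks near any gene. A wider peak covers more of a gene, so the measures are not independent.

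**Figure D4:**
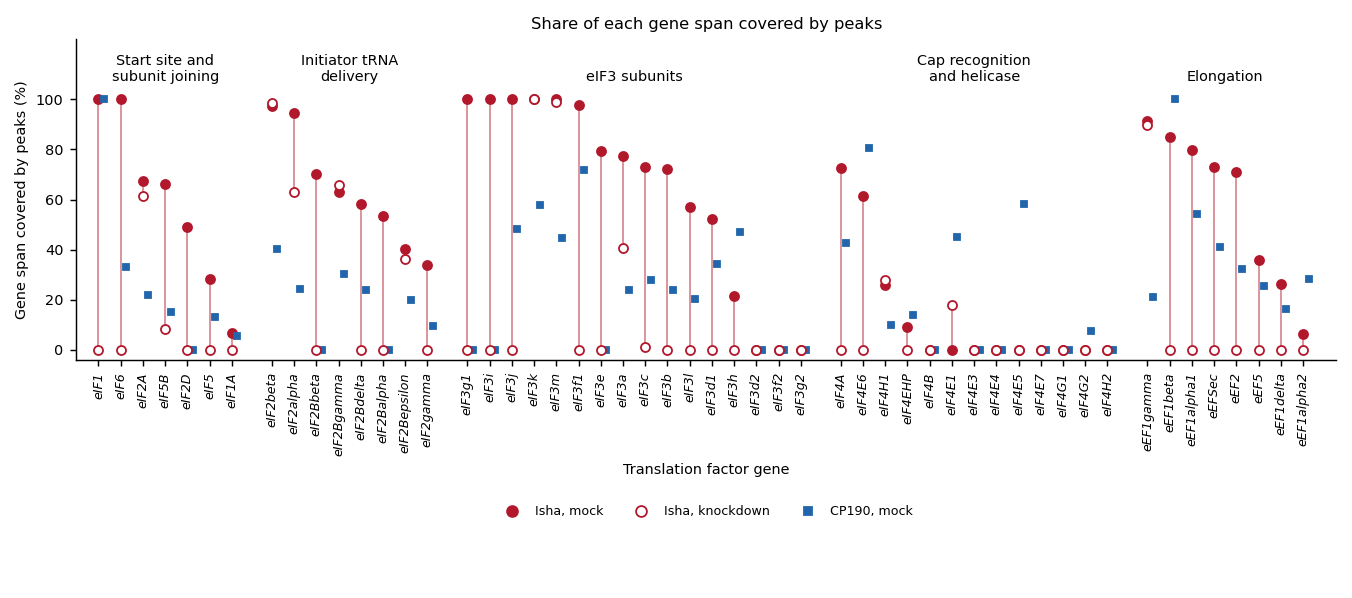
Share of each gene span covered by peaks (%, vertical axis) for the 52 genes (horizontal axis, grouped by role and ordered by mock Isha); filled red circles are mock Isha, open red circles knockdown Isha, blue squares mock CP190, and lines join the Isha values. Mock Isha is above 50% at 29 genes and knockdown Isha at 7.

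Most of these peaks also lay near other genes, so a peak cannot be assigned to the factor gene alone. Of the 76 mock Isha peaks, 65 (85.5%) were also within 1000 bp of another protein-coding gene, against 72.1% of all Isha peaks near genes. The 52 genes had a median of 2 neighbouring genes within 1000 bp, as all genes did. With all genes weighted by length and number of neighbours together, the share with mock Isha was 58.4%, still below 78.8%. Counting a gene only where the middle of the peak was nearest to its own end left 27 of the 52 with mock Isha (51.9%), against 27.8% of all genes, and 23 with CP190 (44.2%), against 37.4%.

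Isha and CP190 met at the same sites. Both were present in mock cells at 36 of the 52 genes (69.2%), against 41.8% of all genes and 45% at like length. The count was 21 (40.4%, against 17.4% of all genes) with only the wider peaks of each list. It was 16 (30.8%, against 15.8%) with only peaks nearest to an end of the gene. Among genes with mock Isha the shares were close, with CP190 at 36 of 41 members and at 5817 of 6922 of all genes. At all of these 36 genes a peak of one overlapped a peak of the other, as at 95.8% of the 5817 genes with both. By peaks, 58 of 76 Isha peaks (76.3%) overlapped CP190, against 67.5% of all Isha peaks near genes, while 8 overlapped Su(Hw) (10.5%, against 6.95%) and 4 Mod(mdg4) (5.26%, against 1.47%). All 20 Isha peaks left near these genes after knockdown overlapped a CP190 peak, against 85.5% of such peaks near any gene, and none overlapped Su(Hw) (against 6.32%) or Mod(mdg4) (against 2.84%).

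After Isha knockdown, 17 of the 41 genes still had an Isha peak within 1000 bp (41.5%), against 29.4% of all genes with a mock peak. With only peaks nearest to an end of the gene, 6 of 27 did, against 668 of 3872 over all genes. At 15 of them (36.6%, against 29% of all genes) a knockdown peak overlapped a mock peak at the same gene. The exceptions were eIF3e and eIF4E1. At eIF3e the knockdown peak (3L, 16782913 to 16784360) overlapped a mock peak (16782796 to 16784165) that lay just outside the 1000 bp limit. The mock peak over eIF3e itself (16785594 to 16787233) was not found again. At eIF4E1 the mock peak (3L, 9398325 to 9399269) lay beyond the lower-coordinate end and the knockdown peak (9401951 to 9402808) over the other end, with no mock counterpart at all. No gene without mock Isha had an Isha peak after knockdown (0 of 11), against 0.329% of all such genes.

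The genes that kept Isha were spread over the roles. They were 4 of the 8 eIF2 and eIF2B genes (eIF2alpha, eIF2beta, eIF2Bgamma and eIF2Bepsilon), 6 of the 13 eIF3 genes with Isha (eIF3a, eIF3c, eIF3e, eIF3k, eIF3l and eIF3m), 3 of 7 for start codon and subunit joining (eIF2A, eIF5 and eIF5B), 2 of 5 in the cap group (eIF4E1 and eIF4H1) and 2 of 8 for elongation (eEF1gamma and eEF5). By arm they were 6 on 3L, 5 on 2R, 4 on X, 2 on 3R and none of the 5 genes on 2L. Over all genes with mock Isha 29.4% kept it. That share was not split by arm or role, so these small counts are not read as a pattern. At eIF3k the knockdown peak (2R, 21684537 to 21687960) nearly matched the mock peak (21684775 to 21688542) and still covered the whole gene. At eIF2beta the span covered was 97.2% in mock and 98.5% in knockdown cells, at eIF2Bgamma 63.2% and 65.6%, at eIF3m 100% and 99%, and at eEF1gamma 91.3% and 89.7%. The knockdown peaks ran from 12524154 to 12526707 on 3L at eIF2beta, from 15540532 to 15543808 on 2R at eIF2Bgamma and from 29219700 to 29221910 on 3R at eEF1gamma. At eIF2beta this was 2554 bp where the mock peaks had begun further out (12522803 to 12525635 and 12525651 to 12526700), and at eEF1gamma a second mock peak outside the gene (29222281 to 29225038) was not found again. At eIF5B 1 of 9 peaks was left (3458337 to 3463139), and the covered share went from 66.1% to 8.17%. At eIF3c it went from 73.1% to 1.22%. At eIF2A it went from 67.5% to 61.5%, and at eIF2alpha from 94.5% to 63%. Most other knockdown peaks fell at an end of the gene or just outside. The knockdown peak of eIF3c (2R, 17669232 to 17671161) held its higher-coordinate end. At eIF3m a second peak (2R, 14160272 to 14162699) lay outside the gene, beside the one that covered it (14163084 to 14165962). At eIF3a peaks lay at 3R, 4428621 to 4429755 and 4432229 to 4435399, and at eIF2A they lay at 3L, 21822687 to 21824397 and 21824485 to 21826655. At eIF2Bepsilon the peak (X, 1921894 to 1924224) held the higher-coordinate end, as did that of eIF2alpha (X, 16445848 to 16447430). A second peak there (X, 16447547 to 16450423) was shared with eIF4H1 and held its lower-coordinate end. Peaks lay outside the gene at eIF3l (3L, 12146340 to 12147176), eIF5 (X, 15985826 to 15987002) and eEF5 (2R, 24055658 to 24057369), so the covered share fell to 0% there.

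The remaining 24 of the 41 genes (58.5%) had no Isha peak within 1000 bp after knockdown, against 70.6% of all genes with a mock peak. Among them were eEF1alpha1, eEF2, eIF4A, eIF6, eIF3b and eIF3j, each covered by Isha over most of its span in mock cells. At eIF1, also among them, the wide mock peak was overlapped by a knockdown peak that lay 1906 bp from the gene. The same held at eIF2D, where a mock peak (3R, 29146236 to 29149718) was overlapped by a knockdown peak (29147140 to 29148762) 1134 bp from the gene.

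The width of the mock peak went with whether the site was found again. Of the 76 mock Isha peaks near these genes, 22 (28.9%) were overlapped by a knockdown peak, against 19% of all Isha peaks near genes. The median mock width was 2942 bp for these 22 and 1776 bp for the other 54. With all mock Isha peaks weighted to the widths of the 76, the share found again was 26.6%, so the peaks at translation factor genes were close to Isha peaks of like width. Split at the quartiles of width over all Isha peaks, none of 9 peaks up to 978 bp was found again, 3 of 15 and 3 of 15 in the classes between, and 16 of 37 from 2364 bp up, against 3.55%, 10.8%, 19.8% and 41.3% of all Isha peaks.

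**Figure D5:**
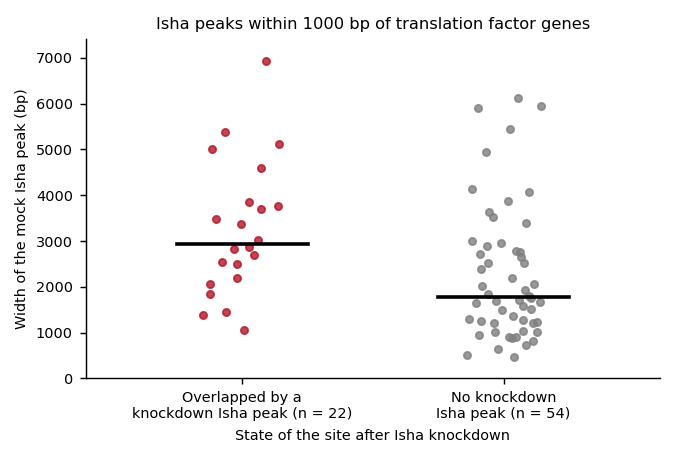
Width in bp (vertical axis) of the 76 mock Isha peaks within 1000 bp of a translation factor gene, parted by whether a knockdown Isha peak overlapped them (horizontal axis); each point is a peak and bars are medians. The medians are 2942 bp for 22 peaks and 1776 bp for 54, and the ranges overlap.

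CP190 was still called at every gene that had it. All 38 genes with a mock CP190 peak had one within 1000 bp after knockdown, against 96.9% of all such genes, and at all 38 a peak lay at the same site, against 96.6%. None lost it (0 of 38), against 3.13%. Of the 61 mock CP190 peaks 58 (95.1%) were found again, against 94.7% near any gene. The 3 that were not lay at the higher-coordinate end of eIF4A (2L, 5985435 to 5986767), beyond eEF5, near RpL12 (2R, 24059682 to 24060730), and inside eIF4EHP (3R, 24095553 to 24096255).

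CP190 was called after knockdown at 3 of the 14 genes without it (21.4%), against 10% of all such genes. With only the wider peaks 6 of the 52 genes gained it (11.5%), against 8.01% of all genes. With only peaks nearest to an end the count was also 6, against 6.9% of all genes. The 3 genes were eIF2Bbeta (peak at X, 2703453 to 2704817), eIF3g1 (X, 2609989 to 2610736) and eIF3i (2L, 4967354 to 4968197 and 4968599 to 4969308). Each of the 3 had a mock Isha peak and no knockdown Isha peak, and the CP190 peaks lay in the stretch that Isha had covered, wholly at eIF2Bbeta and eIF3i and by 669 of 748 bp at eIF3g1. Among the 71 knockdown CP190 peaks near the 52 genes, 11 had no mock counterpart (15.5%), against 11% of those near any gene. Of these 11, 5 lay inside eIF5B. There the count of CP190 peaks went from 4 to 9 and the covered share from 15% to 30.3%. Of the 11 peaks, 8 overlapped a mock Isha peak (72.7%), against 36.1% of the 862 such peaks near any gene. The overlap was short at 3 of the 8, with 16 and 143 bp in eIF5B and 87 bp at eEF1alpha2. Mock CP190 peaks at these genes overlapped Isha in 53 of 61 cases, against 3150 of 7201 near any gene. Overlap with mock Isha was thus common to CP190 peaks of either kind here. The 11 peaks were narrow, with a median of 861 bp against 1292 bp for those found in both treatments. Near any gene the medians were 771.5 and 1195 bp, so this was general to such peaks.

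Su(Hw) was kept at 8 of its 9 genes (88.9%), against 88.2% of all genes with a mock peak (at the same site also 8 of 9, against 88%). The 1 call that ended (against 11.8% lost over all genes) was at eIF3d2, where the nearest Su(Hw) peak moved from 806 to 1082 bp from the gene, past the 1000 bp limit. The peak itself (3R, 12195817 to 12198214 in mock cells) was found in both treatments. By peaks, 15 of 17 were found again (88.2%), against 89.8% of Su(Hw) peaks near any gene. Those that were not lay at the higher-coordinate end of eEF1alpha2 (3R, 31742879 to 31743718) and at the lower-coordinate end of eEF2 (2L, 21677272 to 21678257). Both had overlapped a mock Isha peak and a CP190 peak, and both genes kept another Su(Hw) peak (3R, 31738981 to 31740440, and 2L, 21682897 to 21684179, in mock cells). Of the Su(Hw) peaks at these genes, 4 of 6 with mock Isha and 11 of 11 without it were found again, and of all Su(Hw) peaks near genes 74.3% and 91.1%. Of the 11 peaks, 6 lay inside the single gene eIF4EHP, and of the 6 with Isha 2 lay inside eIF5B. These peaks are therefore not independent. The only Su(Hw) peak found after knockdown alone was at eIF3f1 (3R, 4713948 to 4714494), at the end away from its lasting Su(Hw) peak and wholly inside the former Isha peak (4712912 to 4714634).

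Mod(mdg4) was kept at 3 of its 5 genes (60%), against 81.8% of all genes with a mock peak (at the same site also 3 of 5, against 81.5%). The 3 were eIF3f1 (3R, 4711829 to 4712985 in mock and 4711869 to 4712611 in knockdown cells), eIF4E5 (3L, 7895589 to 7896422 and 7895677 to 7896424) and eIF5B. It was no longer called at 2 genes (against 18.2% lost over all genes), eEF1beta and eEF2. At eEF2 the mock Mod(mdg4) peak (2L, 21682969 to 21684093) lay 805 bp beyond the gene, towards nolo, away from any Isha peak. Su(Hw) and CP190 peaks were still called there after knockdown, as they were at eEF1beta. No gene gained Mod(mdg4) (0 of 47, against 1.06% of all genes without it) and none gained Su(Hw) (0 of 43, against 1.28%).

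Peaks found in both treatments were mostly narrower after knockdown, as in the lists as a whole. Where a mock peak met a single knockdown peak and the reverse, the median ratio of knockdown to mock width was 0.817 for 14 Isha peaks near these genes, against 0.814 for all Isha peaks. It was 0.908 for 51 CP190 peaks against 0.856, 0.974 for 15 Su(Hw) peaks against 0.887, and 0.884 for 3 Mod(mdg4) peaks against 0.889.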

How the data were processed

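Kc167 cells were profiled by ChIP-seq. The build dm6 and the tools Bowtie2 2.4.1, Picard 2.22.2 and SAMtools 1.9 are listed, without their settings, per the submitters' processing notes. How peaks were called and replicates joined is not given in the sources used here. In total the authors deposited 8 lists of peak positions, without score, and their groups were taken from the list names ("SwHw" was read as Su(Hw)). Peaks on the main arms were used, which left out 1 to 5 per list, and coordinates are counted from 1.

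Genes came from the RefSeq table of Release 6 plus ISO1 MT. A gene was called when a peak overlapped its span or the 1000 bp on either side by at least 1 bp. Like-length shares are the shares of all protein-coding genes in 10 bins of length, weighted to the group's lengths. The same minimum was used between peaks. No test was run, since each condition has 1 list. The members, gene lists and the split by paralogs were chosen with earlier results of these data known, and the span shares were added after the calls were seen. Peak positions are given for members with Su(Hw), Mod(mdg4) or knockdown Isha peaks, with changed calls, for the 5 widest Isha peaks and for paralogs, in ranges where a gene holds many. Other members were named after their values were seen. Of the wider list, Tor was taken as mTor.

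Promoters and motifs were not analysed, since no sequence or strand was used here. Python 3.11.15, NumPy 2.4.6, pandas 2.3.3 and matplotlib 3.10.9 were used. The calling of genes and the like-length shares were tested on simulated data, and the other steps were not.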

Additional observations from a re-analysis of the deposited data

How the results depend on the processing

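With peaks that overlap the gene itself, windows of 500 and 2000 bp, peak midpoints, or with the wider peaks of each list, mock Isha was at 36 to 41 of the 52 genes and above the share of all genes each time. A window of 500 bp moved no count by over 1.5 times. With 2000 bp, 13 genes (25%) had Su(Hw) after knockdown and 13 kept it, against 25.3% and 24.2% of all genes. Counting only peaks that overlap the gene, or only midpoints, gave 1 gene that gained Isha in each case, eIF4E1 in the first. This was 1.92% of the 52, against 0.144% and 0.654% of all genes. Peaks at or above the median width of their list left 5 genes with mock Su(Hw) (9.62%, against 13.4% of all genes). They left 3 with mock and 1 with knockdown Mod(mdg4) (5.77% and 1.92%, against 4.93% and 4.26%). Isha and CP190 were together at 21 (40.4%, against 17.4%). Of the 52, 4 kept Su(Hw) (7.69%, against 11.4%) and 1 kept Mod(mdg4) (1.92%, against 3.45%). CP190 was gained at 6 (11.5%, against 8.01%) and Su(Hw) at 2 (3.85%, against 1.32%). Counting only peaks nearest to an end of the gene, added after seeing the data, left 27 genes with Isha, 23 with CP190, 5 with Su(Hw) and 3 with Mod(mdg4) in mock cells, 16 with Isha and CP190, and 9 with Isha, 26 with CP190 and 5 with Su(Hw) after knockdown. Over all genes these shares were 27.8%, 37.4%, 15.9% and 5.5% in mock cells, 15.8% for both, and 6.44%, 40.1% and 14.8% after knockdown. Then 6 genes kept Isha (11.5%), 20 CP190 (38.5%) and 4 Su(Hw) (7.69%), against 4.8%, 33.2% and 13.8% of all genes. Gains were 3 for Isha (5.77%), 6 for CP190 (11.5%) and 1 for Su(Hw) (1.92%), against 1.64%, 6.9% and 1.01%. These settings count fewer peaks by construction. Weighting by 20 length bins, or without the members, left the like-length share for mock Isha at 54.1% and 53.8%. Weighting also by neighbours, added later, gave 58.4% for Isha, 64.5% for CP190, 18.3% for Su(Hw) and 6.54% for Mod(mdg4) in mock cells, and 17.6%, 66.9%, 17.1% and 6.24% after knockdown.

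The lists hold no depth or score, so a threshold on peak strength, and a promoter window and motif shares for want of strand and sequence, were not run. No paired analysis was possible because each list joins both replicates and no result comes from a test.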
